A study of Mus musculus with 8 samples.

Results

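The GIMAP genes (GTPases of immunity-associated proteins) were followed in insulin-specific T cells taken from hosts with native insulin or with an insulin altered at a residue of the B chain. The members are the 8 rows of the deposited count table named GIMAP1, GIMAP3, GIMAP4, GIMAP5, GIMAP6, GIMAP7, GIMAP8 and GIMAP9, out of 46625 named genes. They are written below as mouse symbols (Gimap1 and so on). All 8 passed the filter on low counts, which 14607 genes passed. No GIMAP gene passed the test between the hosts, and the NOD and B16A values of all 8 overlapped. In 7 of the 8 both libraries of batch 4, 1 from each host, stood above the other 6, as they did in 31.8% of all tested genes.

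The cells were 8F10 T cells, which carry a T cell receptor for an insulin peptide. Marrow stem cells of CD45.2 8F10 donors without the endogenous receptor alpha chain, freed of mature T and B cells, were given to CD45.1 hosts irradiated at a non-lethal dose. The hosts were NOD mice, a strain that develops autoimmune diabetes, or B16A mice, in which the altered insulin takes the place of the native form. All samples are labelled NOD/ShiLtJ. The T cells were sorted 6 weeks later from the inguinal lymph nodes of either host. There were 4 libraries per host, numbered 1 to 4, and the labels give that number as the batch, with 1 library of each host in each. The labels used here give no age, sex or number of animals per library, so a p-value here covers the spread among libraries, which may be technical. The marrow grew in hosts that kept their own irradiated tissues, and the receptor is the same by design, so the cells are not a polyclonal repertoire.

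GIMAP proteins are septin-like GTPases with an AIG1-type domain that binds guanine nucleotides. Most sit on intracellular membranes of lymphocytes, and several are needed for mature T cells to survive. Loss of Gimap5 leaves rats and mice with few peripheral T cells, and in the BB rat that defect goes together with autoimmune diabetes. The genes lie side by side in a single cluster and arose by duplication.

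The P-loop is the part of the GTPase domain that binds the nucleotide. It is not particular to this family, and its bases are used here to show which members resemble each other. Its coding bases were found by translating the annotated coding sequence of each gene (GENCODE vM21, mm10, the C57BL/6J reference and not the NOD strain). They are written 5′ to 3′ on the coding strand, with the 24 bases of the P-loop in capitals and 6 bases on either side in lower case. Gimap8 holds 3 copies.
Gimap1: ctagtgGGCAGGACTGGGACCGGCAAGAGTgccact
Gimap3: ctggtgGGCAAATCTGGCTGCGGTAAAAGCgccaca
Gimap5: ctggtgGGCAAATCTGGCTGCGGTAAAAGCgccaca
Gimap4: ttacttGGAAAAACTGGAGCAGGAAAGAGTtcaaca
Gimap6: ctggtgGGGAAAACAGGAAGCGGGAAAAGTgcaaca
Gimap7: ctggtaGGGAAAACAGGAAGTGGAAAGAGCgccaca
Gimap9: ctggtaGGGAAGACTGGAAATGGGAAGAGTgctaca
Gimap8 copy 1: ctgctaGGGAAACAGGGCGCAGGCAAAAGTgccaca
Gimap8 copy 2: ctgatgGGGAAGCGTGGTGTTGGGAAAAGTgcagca
Gimap8 copy 3: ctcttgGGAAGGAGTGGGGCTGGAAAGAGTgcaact
The bases of Gimap3 (chr6:48765881-48765916, minus strand) and Gimap5 (chr6:48752588-48752623, plus strand) are the same. Over their coding sequences these genes shared 812 of 895 aligned bases (90.7%). The next closest pair, Gimap7 and Gimap9, shared 68.8%, with Gimap8 and its 3 domains left out of the alignment.

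This likeness bears on the counts, because reads of 50 bases that fit more than 1 gene may be split or dropped, and how the authors treated them is not given in the sources used here. Of the 50-base windows in the annotated transcripts, 190 were shared by Gimap3 and Gimap5, which is 7.52% of those of Gimap3 and 4.53% of those of Gimap5. No other pair of members shared a window. Some windows also occurred in genes outside the list. Gimap1 shared 149 with Gm28053, 36 with Gm10310 and 8 with Gm49762. Gimap5 shared 105 and Gimap7 32 with Gm28053. Gimap3 shared 16 with Gm38409 and 8 with Gm28053, and Gimap6 shared 2 with Cd63. Gimap1 was the gene most exposed to overlap: 36.0% of its exon bases lie opposite exons of Gimap1os, an antisense RNA, or within those of Gm28053. Gm28053 is annotated as a coding gene that runs across Gimap7, Gimap1 and Gimap5 on the same strand. It covers 3.5% of the exon bases of Gimap7 and 3.7% of those of Gimap5. Gimap3, Gimap4, Gimap6, Gimap8 and Gimap9 overlap no exon of another annotated gene. As the use of strand is not given, reads of Gimap1 and Gimap1os cannot be told apart where they overlap, and values for Gimap1 are uncertain to that extent.

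The cluster lies on chromosome 6 of mm10. From the end nearest the centromere the order is Gimap8 (48647234 to 48660875, plus strand), Gimap9 (48676129 to 48679114, plus), Gimap4 (48684549 to 48692060, plus), Gimap6 (48701582 to 48708225, minus), Gimap7 (48718621 to 48724636, plus), Gimap1 (48739054 to 48743795, plus), Gimap5 (48746197 to 48754210, plus) and Gimap3 (48764464 to 48770851, minus). The map shows this order and sets it beside the level in batch 4, which is described further on.

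**Figure D1:**
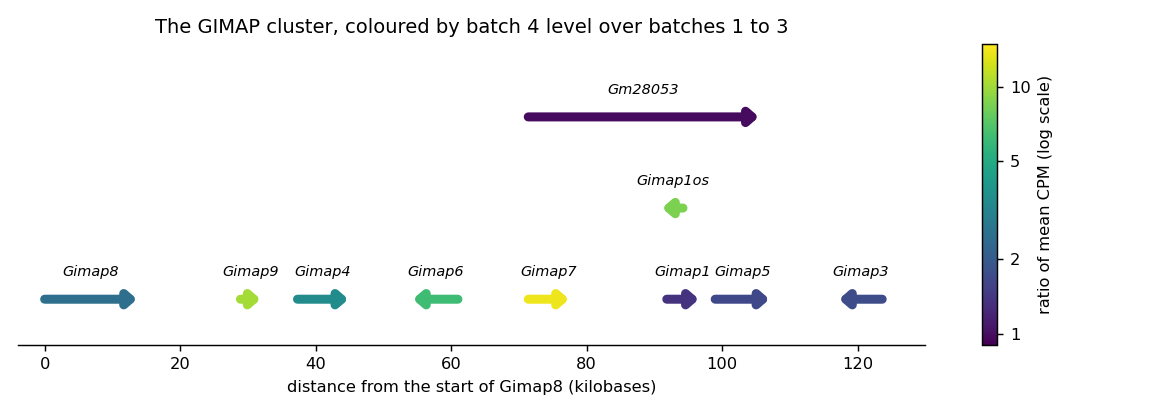
The 8 GIMAP genes (lowest row) with Gimap1os and Gm28053 above them, drawn to scale by distance in kilobases from the start of Gimap8; arrows point in the direction of transcription. Colour gives the mean CPM of the 2 batch 4 libraries over that of the 6 others, from 0.977 for Gm28053 to 14.0 for Gimap7.

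The 6 libraries of batches 1 to 3 held 4896593 to 6137666 counts each, and the batch 4 libraries 28301805 (NOD) and 28094237 (B16A). The batch 4 libraries also stood apart in composition: 19751 and 20723 genes had at least 1 count, against 29729 to 33175 in the others. Values below are therefore given by batch, and fits are repeated without batch 4. The sorted cells carried the 10 T cell markers tested, whose summed level was 5076 to 17740 CPM (CPM, counts scaled to a common library size after TMM adjustment). The 8 B cell markers summed to 2.20 to 29.7 CPM and the 10 myeloid and dendritic markers to 9.34 to 97.6 CPM. The 8 endothelial markers, tested because endothelium also expresses GIMAP genes, summed to 269 to 417 CPM. Of that, 268.5 to 403 CPM came from Pecam1, which T cells express too, and the other 7 reached 0.0896 to 39.1 CPM. The 6 markers of cytotoxic T cells summed to 91.4 to 252 CPM, 5 of natural killer cells to 3.96 to 41.7, 6 of stroma to 2.72 to 29.2 and 4 of red cell precursors to 0.210 to 4.99 CPM. Of the cytotoxic sum, 62.6 to 186 CPM came from Cd8b1 and 24.1 to 64.2 from Prf1, and Cd8a reached at most 3.56 CPM. Pdpn and Ccl19, both stromal, had 0 counts in all 8 libraries. In bulk RNA, fewer cells of a type and less RNA per cell cannot be told apart.

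Gimap5 and Gimap3 are the pair most closely tied to T cell survival, placed by earlier work on lysosomal, mitochondrial or other inner membranes. Gimap5 stood at 121.5, 74.0, 82.4 and 157 CPM in the NOD libraries of batches 1 to 4 and at 99.4, 76.8, 70.2 and 132 CPM in the B16A libraries. Gimap3 stood at 333, 225, 425 and 651 CPM in NOD and at 328, 271, 364 and 464 CPM in B16A hosts. For both genes the groups overlapped, and the highest value in each host was that of batch 4. Gimap1, required for mature T and B cells to persist, stood at 65.2, 45.1, 92.3 and 73.0 CPM in NOD and at 59.2, 33.9, 51.6 and 83.9 CPM in B16A hosts. With batch 4 included, Gimap1 was the member with the lowest mean in both hosts. In batches 1 to 3 alone Gimap7 was lower, with a mean of 35.4 CPM against 57.9 for Gimap1. Gimap1 was also the only member for which neither batch 4 library stood above all 6 libraries of batches 1 to 3.

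Gimap4, which speeds the death of T cells once apoptosis has been set off, stood at 306, 283.5, 370.5 and 1041 CPM in NOD and at 297, 302, 320.5 and 1140 CPM in B16A hosts. Gimap6, which binds a protein of the ATG8 family and has been tied to autophagy, stood at 586, 292, 536 and 3244 CPM in NOD and at 551, 309, 414 and 2338 CPM in B16A hosts. Gimap6 had the highest CPM of the members in all 8 libraries, narrowly so in batch 2, where Gimap4 came close in both hosts. The B16A values of Gimap4 in batches 1 to 3 lay within the range of the NOD values of those batches, as did those of Gimap6.

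Gimap7, whose GTPase activity is switched on by pairing of its domains, stood at 47.7, 20.2, 44.6 and 578 CPM in NOD and at 38.4, 32.0, 29.8 and 418 CPM in B16A hosts. Gimap9, a close neighbour in sequence with no well defined role, stood at 69.5, 53.1, 92.8 and 826 CPM in NOD and at 65.9, 59.8, 73.5 and 586 CPM in B16A hosts. Gimap8, the long member with 3 GTPase domains, stood at 77.3, 55.5, 87.6 and 154 CPM in NOD and at 68.4, 70.4, 70.7 and 202 CPM in B16A hosts. In all 3 genes the 2 batch 4 libraries were the highest, and among batches 1 to 3 the NOD library of batch 2 was the lowest of the 6.

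**Figure D2:**
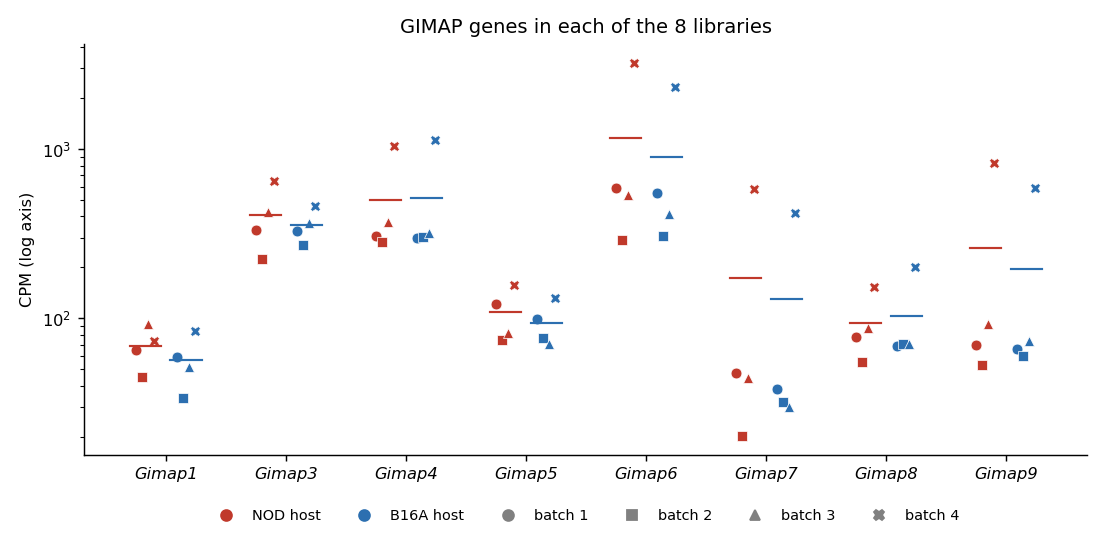
CPM of each GIMAP gene (log axis) in the 8 libraries, 1 marker per library; colour gives the host, marker shape the batch, and the short lines the mean of the 4 libraries of a host. The batch 4 crosses of Gimap6, Gimap7 and Gimap9 lie far above the other libraries in both hosts, and the hosts overlap for every gene.

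Levels of different genes were compared per kilobase of exon. In batches 1 to 3 the members fell into 3 tiers whose ranges over the 6 libraries did not meet. Gimap4 (171 ± 16.6 CPM per kilobase, SD, n = 6), Gimap6 (128 ± 36.7) and Gimap3 (126 ± 27.2) formed the upper tier, between 83.4 and 202. Gimap9 stood alone at 42.1 ± 8.33, between 32.3 and 56.5. Gimap5 (21.1 ± 4.72), Gimap8 (19.4 ± 2.86), Gimap1 (18.8 ± 6.55) and Gimap7 (15.2 ± 4.38) formed the lowest, between 8.69 and 30.1. The tiers were drawn from these same values, and the gap below Gimap9 is narrow, from 30.1 (Gimap1) to 32.3. The length of Gimap1 was counted in full, although 36.0% of its exon bases overlap other exons. If reads there were dropped, its level per kilobase is too low, so its place below Gimap9 is uncertain. Ranges within a tier overlapped, and no pair next to each other in mean kept its order in all 6 libraries. Within libraries Gimap4 lay above Gimap3 in all 6, and Gimap5 and Gimap8 each lay above Gimap7 in all 6. In batch 4 the order changed: Gimap6 came first at 928 (NOD) and 669 (B16A), followed by Gimap4 at 567 and 620.5, and Gimap9 at 503 and 357. Gimap7 moved from the lowest tier to 248 and 180, level with Gimap3 at 253 and 180. Gimap8, Gimap5 and Gimap1 remained below at 23.8 to 54.6. These SDs pool both hosts and describe the libraries of batches 1 to 3 only.

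**Figure D3:**
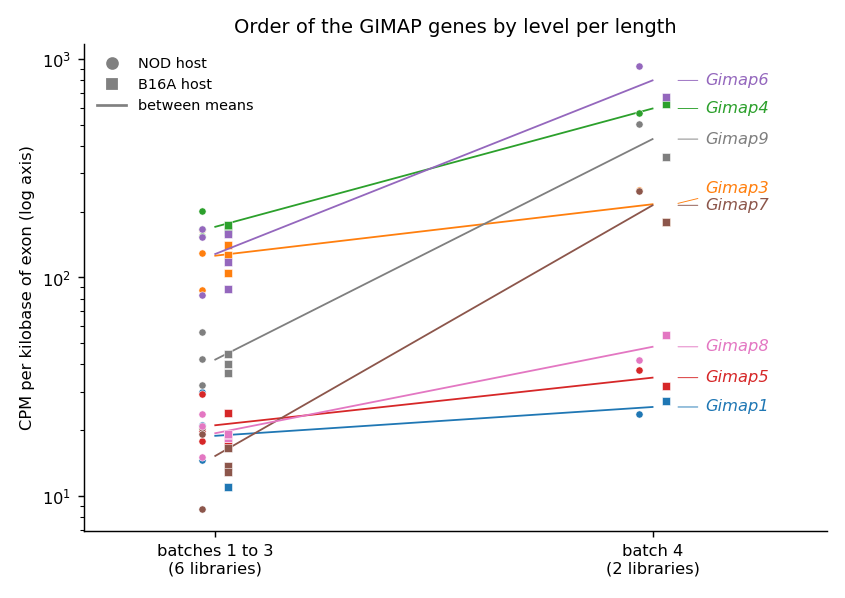
CPM per kilobase of exon (log axis) of the 8 GIMAP genes in the 6 libraries of batches 1 to 3 and the 2 of batch 4; circles are NOD and squares B16A libraries, and lines join the means. Gimap7 climbs from the lowest mean, 15.2, to 214, while Gimap1 goes from 18.8 to 25.5.

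The central question was whether the hosts differed. In the comparison of all 8 libraries that ignores the batch, edgeR called 0 of 14607 genes (0%) and hence 0 of the 8 members, with 34 genes (0.233%) at an unadjusted p under 0.05, none of them a member. DESeq2 and limma voom called 0 as well, with 105 (0.719%) and 1008 (6.9%) genes at an unadjusted p under 0.05. Gimap1 was among the latter, at a log2 fold change of 0.47 (limma voom, adjusted p = 0.715). The log2 fold change, NOD over B16A, was positive for 6 of 8 members and for 54.1% of all tested genes, with medians of 0.24 and 0.03. The largest estimate was that of Gimap7, 173 ± 270 CPM in NOD against 129.5 ± 192 in B16A hosts (SD, n = 4 each). Its log2 fold change was 0.41, and the standard error of that value was 1.29 (edgeR, adjusted p = 0.9999). Gimap9 followed at 0.41 (standard error 1.13) and Gimap6 at 0.37 (0.92). Gimap1 was at 0.27 (0.35), Gimap5 at 0.20 (0.34), Gimap3 at 0.20 (0.36), Gimap4 at -0.04 (0.62) and Gimap8 at -0.13 (0.48). All had an adjusted p of 0.9999. The 95% intervals of this fit, not adjusted for the number of genes, are wide: for Gimap7 the fold ratio ran from 0.173 to 10.3, and for Gimap5, the narrowest, from 0.676 to 1.96.

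With the batch as a term, so that each NOD library is set against the B16A library of its own batch, the errors shrank and the differences remained small. EdgeR again called 0 genes (0%), with 857 genes at an unadjusted p under 0.05 (5.87%), no member among them. Gimap1 had the largest estimate, 0.29 (standard error 0.18, edgeR adjusted p = 0.917), and Gimap6 the next, 0.21 (standard error 0.14, adjusted p = 0.917). The standard error of Gimap7 fell to 0.18 and its estimate to 0.20 (adjusted p = 0.953). The 95% intervals of the 8 fold ratios lay between 0.755 (lower bound of Gimap8) and 1.60 (upper bound of Gimap1). For Gimap5 the interval was 0.923 to 1.39 and for Gimap3 0.877 to 1.34. These bounds do not show that the hosts are alike, and they give the size of difference the data allow. DESeq2 with the batch term called 27 genes (0.185%) and limma voom 7 (0.0479%), and no member was among either. At an unadjusted p under 0.05, which 7.96% of genes passed in voom with the term, Gimap1 was the 1 member (0.37, limma voom, adjusted p = 0.577).

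**Figure D4:**
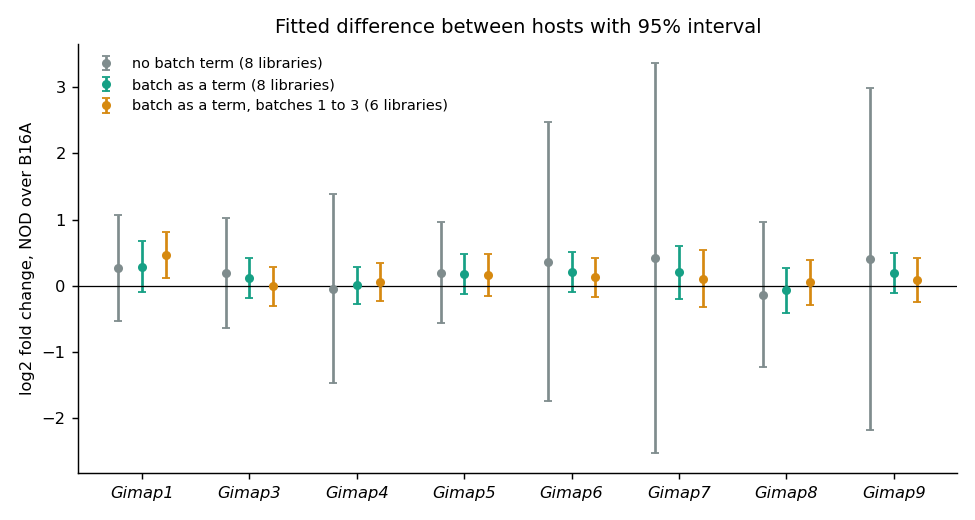
Log2 fold change (NOD over B16A host) of each GIMAP gene from edgeR, with 95% intervals as bars, from the fit without a batch term (grey), with batch as a term (green) and with batch as a term in batches 1 to 3 (orange). The grey bars of Gimap6, Gimap7 and Gimap9 are the longest, and the orange bar of Gimap1, from 0.12 to 0.82, is the 1 interval that does not reach 0.

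With batch 4 left out and batch as a term, 32 of 15716 genes were called (0.204%) and again no member. Gimap1 came closest. Its estimate was 0.47 with a standard error of 0.17 and an unadjusted p of 0.0106, and its adjusted p was 0.355 (edgeR). In this fit 8.37% of all genes had an unadjusted p under 0.05. The NOD library was higher for Gimap1 by a log2 ratio of 0.14, 0.41 and 0.84 in batches 1 to 3, and lower in batch 4 by -0.20. Gimap1os, whose exons overlap those of Gimap1, stood at 19.6, 12.5, 15.2 and 125 CPM in NOD and at 16.4, 12.6, 9.39 and 121 CPM in B16A hosts, and the part of its reads in the counts of Gimap1 was not tested.

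Within batches the members tended to share a direction that differed from batch to batch. In batch 1 the NOD library was higher for 8 of 8 members, by log2 ratios of 0.02 (Gimap3) to 0.31 (Gimap7), while it was higher for 50% of all tested genes. In batch 2 it was higher for 1 of 8, Gimap1, against 53.4% of all genes, and the ratios ran from -0.66 (Gimap7) to 0.41. In batch 3 it was higher for 8 of 8 again, from 0.21 (Gimap4) to 0.84 (Gimap1), against 48% of all genes. In batch 4 it was higher for 5 of 8, from -0.39 (Gimap8) to 0.50 (Gimap9), against 46.4%. The members' medians were 0.11, -0.13, 0.32 and 0.36 in batches 1 to 4, against -0.03 to 0.05 over all tested genes. No member kept 1 direction in all 4 batches, which 14.8% of all tested genes did, and no member had groups that did not overlap (0.596% of all genes). The members of a pair of libraries share their scaling, so their agreement within a batch is not 8 separate observations. Among the 6055 genes with a mean of at least 20 CPM, a limit chosen after the values were seen, the log2 ratios of batches 1 to 4 had medians of 0.02, -0.11, 0.08 and 0.04.

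**Figure D5:**
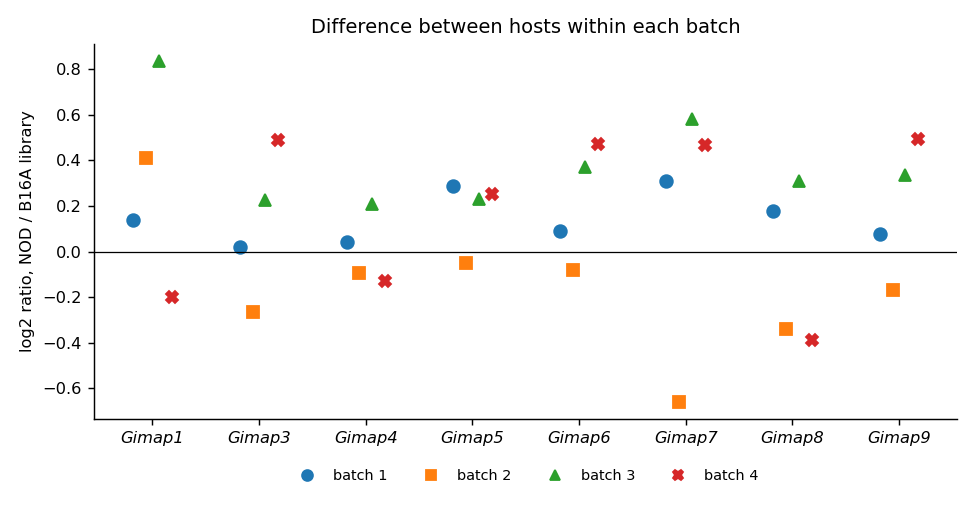
Log2 ratio of CPM, NOD over B16A library, for each GIMAP gene within each batch; each marker is 1 pair of libraries and so has no error bar. The batch 2 squares lie below 0 for every gene but Gimap1, and the batch 1 and batch 3 markers lie above 0 for every gene.

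Several members stood much higher in batch 4 than in the other batches, in both hosts. The family took 0.114% to 0.173% of a library in batches 1 to 3, but 0.530% of the NOD library and 0.456% of the B16A library of batch 4. For 7 of 8 members, all but Gimap1, both batch 4 libraries stood above all 6 others, which held for 31.8% of all tested genes. The ratio of the mean of batch 4 to that of batches 1 to 3 was 14.0 for Gimap7, 10.2 for Gimap9 and 6.24 for Gimap6. It was 3.48 for Gimap4, 2.49 for Gimap8, 1.72 for Gimap3, 1.65 for Gimap5 and 1.36 for Gimap1, against a median of 0.840 over all tested genes. A ratio of at least 4 was reached by 3 of 8 members and 11.3% of all genes. In each host taken alone, NOD and then B16A, the ratio was 15.4 and 12.5 for Gimap7, 11.5 and 8.83 for Gimap9, 6.89 and 5.51 for Gimap6 and 3.25 and 3.72 for Gimap4. It was 2.10 and 2.89 for Gimap8, 1.99 and 1.45 for Gimap3, 1.69 and 1.60 for Gimap5 and 1.08 and 1.74 for Gimap1. Within the family, the share of Gimap6 in the members' counts was 26.7% to 36.5% in the 6 libraries of batches 1 to 3, and it was 48.2% (NOD) and 43.6% (B16A) in those of batch 4, while Gimap3 went from 20.7% to 26.1% down to 9.69% and 8.65%. No test was made, since batch is no comparison of the study and batch 4 holds 1 library per host.

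Several other measures moved with batch 4. Its libraries were the deepest, and the summed level of the 10 T cell markers was 17740 and 13520 CPM there against 5076 to 9616 in batches 1 to 3. Of these 10, 7 stood above all other libraries in both libraries of batch 4. Cd4 was lower there, at 917 (NOD) and 699 (B16A) CPM against 1026 to 1204. Trbc1, at 1875 and 1904 CPM, and Cd5, at 75.5 and 47.1, did not stand above the other batches. Markers of other cells went both ways. The B cell list summed to 2.20 and 2.98 CPM in batch 4 and to 8.68 to 29.7 elsewhere, and the myeloid list to 9.77 and 9.34 against 50.0 to 97.6. The 7 endothelial markers other than Pecam1 summed to at most 0.377 CPM in batch 4, with Egfl7 and Robo4 at 0 counts. The stromal list summed to 3.94 and 2.72 CPM there and to 11.9 to 29.2 in the other batches. The natural killer list was higher, at 19.6 and 41.7 CPM against 3.96 to 10.3. Almost all of that batch 4 level was Klrd1, at 19.6 and 41.1 CPM. Ncr1, Klrb1c, Klra8 and Tbx21 each stood at 0.461 CPM or less in batch 4. The cytotoxic list stood at 252 and 154 against 91.4 to 158. In batch 4 Cd8b1 gave 186 and 122 CPM of it and Prf1 64.2 and 31.1. Cd8a, Gzmb, Eomes and Nkg7 each stood at 1.79 CPM or less there. Across the 13680 tested genes with an annotated length, the batch 4 ratio had a Spearman correlation of -0.22 with exon length and -0.15 with the GC share of the longest transcript, a description across genes that share the same libraries. In the order of falling batch 4 ratio, the longest transcripts of Gimap7, Gimap9, Gimap6, Gimap4, Gimap8, Gimap3, Gimap5 and Gimap1 had GC shares of 48.1%, 42.6%, 46.7%, 43.3%, 41.3%, 51.0%, 46.8% and 57.0%. Their exon lengths in the same order were 2.325, 1.642, 3.496, 1.837, 3.7, 2.577, 4.149 and 3.073 kilobases. The part of depth, composition, length or GC in the members' batch 4 levels was not tested.

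The start regions of the members are shown for Gimap7, Gimap9 and Gimap6, which had the largest batch 4 ratios, and for Gimap1, which had the smallest. Each is the 250 bases before the RefSeq start (GRCm38), 5′ to 3′ on the gene's strand. All 8 members had an entry, Gimap8 with 2 starts whose windows overlap, so that this gene enters the counts of windows below 2 times. Capitals mark matches on either strand to letters typical of factors active in T cells: ETS (AGGAAG), RUNX (TGTGGT), FOXO (TGTTTAC), AP-1 (TGANTCA), TCF/LEF (CTTTGA) and KLF (CCACCC). Gimap9 lies at chr6:48675885-48676134 (plus), Gimap7 at chr6:48718371-48718620 (plus), Gimap6 at chr6:48708245-48708494 (minus) and Gimap1 at chr6:48738797-48739046 (plus).
Gimap9: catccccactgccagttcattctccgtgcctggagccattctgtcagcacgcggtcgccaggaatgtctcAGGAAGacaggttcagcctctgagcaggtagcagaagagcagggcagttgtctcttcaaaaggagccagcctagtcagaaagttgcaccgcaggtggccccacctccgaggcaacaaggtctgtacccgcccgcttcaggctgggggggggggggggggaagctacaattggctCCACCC
Gimap7: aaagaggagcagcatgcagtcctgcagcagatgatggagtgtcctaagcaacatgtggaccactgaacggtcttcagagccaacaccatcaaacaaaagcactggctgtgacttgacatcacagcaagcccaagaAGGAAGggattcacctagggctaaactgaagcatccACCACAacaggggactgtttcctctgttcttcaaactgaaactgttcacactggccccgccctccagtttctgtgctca
Gimap6: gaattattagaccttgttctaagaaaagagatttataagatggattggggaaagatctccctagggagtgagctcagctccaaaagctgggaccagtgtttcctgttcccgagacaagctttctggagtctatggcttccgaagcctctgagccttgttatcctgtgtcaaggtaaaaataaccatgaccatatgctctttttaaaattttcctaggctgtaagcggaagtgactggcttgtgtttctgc
Gimap1: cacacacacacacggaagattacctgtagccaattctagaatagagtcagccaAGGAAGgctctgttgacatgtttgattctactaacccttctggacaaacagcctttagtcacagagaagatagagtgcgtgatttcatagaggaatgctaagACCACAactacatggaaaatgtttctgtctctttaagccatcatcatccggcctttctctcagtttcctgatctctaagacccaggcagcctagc
The ETS letters occurred in 7 of the 9 member windows and in 29.5% of 32851 windows of all genes, and the KLF letters in 5 of 9 and 28.1%. The RUNX letters occurred in 3 of 9 (14% of all), among them Gimap7 and Gimap1, and the FOXO letters in 1 of 9, Gimap3 (3.2% of all). The AP-1 and TCF/LEF letters occurred in 0 of 9 (6.7% and 13.8% of all). No set of letters was shared by Gimap9, Gimap7 and Gimap6, and the window of Gimap6 held none of the 6. Only these exact letters were searched, so variants of them were not counted. The Gimap6 window holds CGGAAG, for instance, which differs from the ETS letters in the first base. A match is a description of letters and not a binding site.

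Genes that act with GIMAP proteins were read from lists of IL-7 signalling and BCL2-family survival genes, autophagy genes, genes of naive and quiescent T cells and genes of the AKT and GSK3 kinases. None of their 46 members was called (edgeR without a batch term, 0%), and none with the batch term. Of the 14 survival genes 9 had a positive log2 fold change, with a median of 0.03. Those with the smallest p were Bbc3, a death-promoting member of the BCL2 family, at 13.1 ± 6.58 CPM in NOD and 7.53 ± 5.07 in B16A hosts (a log2 difference of 0.78, standard error 0.58), and Bcl2l1, its survival-promoting relative, at 20.6 ± 12.1 and 14.8 ± 1.92 (0.48, standard error 0.40). In the fit of batches 1 to 3 with the batch term, 1 of the 14 rose, beside 0.204% of all genes called in that fit: Il7r, through which T cells sense IL-7 (log2 difference 0.86, edgeR, adjusted p = 0.00371). There Gimap5, Gimap3 and Gimap6 were at 0.16, -0.0038 and 0.13 and did not pass. When batch 4 was kept and the term used, Il7r was at 0.51 (adjusted p = 0.844), and without the term at 0.03 (adjusted p = 0.9999).

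Of the 12 autophagy genes 8 were positive, with a median of 0.07. Atg12, a conjugating protein of the autophagosome, stood at 65.1 ± 15.5 CPM in NOD and 52.9 ± 4.71 in B16A hosts (0.30, standard error 0.26), and Map1lc3b, of the ATG8 family, at 258 ± 176 and 173 ± 83.5 (0.58, standard error 0.52). Of the 14 naive and quiescence genes 8 were positive, with a median of 0.07, or -0.04 with the batch term. Foxo1, a transcription factor of quiescent T cells, stood at 668 ± 81.5 and 865 ± 158 CPM (-0.37, standard error 0.25), and Lef1, a factor of naive T cells, at 1579 ± 412 and 1857 ± 313 (-0.23, standard error 0.28). Of the 6 kinase-pathway genes 2 were positive, with a median of -0.04. Ctnnb1, coding for beta-catenin, stood at 81.0 ± 19.7 and 90.4 ± 31.4 CPM (-0.16, standard error 0.31). All adjusted p were 0.9999 (edgeR without the batch term, SD and n = 4 each). With the term the errors shrank. The estimates were then 0.28 (standard error 0.16) for Atg12, 0.48 (0.16) for Map1lc3b and -0.36 (0.13) for Foxo1. Lef1 was at -0.25 (0.14) and Ctnnb1 at -0.14 (0.15). The adjusted p of these 5 ran from 0.7345 (Map1lc3b) to 0.9614 (Ctnnb1, edgeR). Both batch 4 libraries stood above all others for 7 of 14, 6 of 12, 8 of 14 and 3 of 6 genes of these lists, beside 7 of 8 GIMAP genes and 31.8% of all genes.

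Genes around the cluster had low levels. The nearest 5 tested genes on either side, from Atp6v0e2 to AI854703 and from Tmem176b to Igf2bp3, had means of 2.89 to 23.7 CPM, below the 57.2 CPM of the lowest GIMAP mean. That lowest mean includes batch 4. In batches 1 to 3 alone Gimap7 had a mean of 35.4 CPM. In the NOD library of batch 2 it stood at 20.2 CPM, below Igf2bp3 at 21.7. None of the neighbours was called. Their batch 4 ratio ran from 0.0565 (Lrrc61) to 3.75 (Repin1). Repin1, a zinc finger gene, lies 48152 bases before Gimap8. Inside the cluster Gimap1os had a ratio of 8.61 and Gm28053 one of 0.977, at 7.03 to 11.3 CPM in all libraries. Along the cluster, from Gimap8 to Gimap3, the ratios of the members were 2.49, 10.2, 3.48, 6.24, 14.0, 1.36, 1.65 and 1.72, as the map of the cluster shows.

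The members varied together to different degrees. Over the 8 libraries the Pearson r of log2 CPM between members ran from 0.571 to 0.991 over 28 pairs, with a median of 0.864, and over the 6 libraries of batches 1 to 3 from -0.0913 to 0.969, with a median of 0.732. The first of these includes the step from the other batches to batch 4. Of 10724 other genes with a mean of at least 4 CPM, those most like the members' mean over the 8 libraries were Frg1 and Mdh1 (r = 0.999) and Ilf2, Cwc15 and Psmb6 (r = 0.998). As 25.8% of those genes had an r over 0.9, many genes share this pattern. Over batches 1 to 3 the most alike were Ttc13 (r = 0.997), Zranb1 (0.996), Frg1 (0.994), Mdh1 (0.993) and Hdgf (0.993), with 4.24% of genes over 0.9. Frg1 and Mdh1, which codes for cytosolic malate dehydrogenase, were in both sets, and the CPM of Frg1 lay between 15.2 and 33.7 in batches 1 to 3, against 290 (NOD) and 241 (B16A) in batch 4. These are descriptions over libraries that share batches, chosen among many genes.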

How the data were processed

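RNA was measured in 8 libraries of sorted T cells, 4 per host, prepared by SeqPlex amplification and read as single reads of 50 bases, per the labels' protocols. The authors deposited a single table of raw counts, whole numbers of reads for each gene. The submitters' processing notes name STAR, HTSeq, DESeq2 and mm10. The annotation, the strand setting and the treatment of multiply mapped reads were not given in the sources used here. Intervals cover the spread between libraries.

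Counts were fitted on the whole table with edgeR 4.0.16 (R 4.3.3, quasi-likelihood with robust estimation) after filterByExpr and TMM scaling, with Benjamini-Hochberg adjustment over all tested genes and a threshold of 0.05. The table has 46625 genes, of which 14607 were tested. The main fit has no batch term. Fits with it, DESeq2 1.42.0, limma 3.58.1 voom with quality weights, other scalings and filters and left-out libraries were alternatives. Standard errors come from the F statistic. Log2 CPM has a prior count of 2. On simulated data, edgeR was checked with and without the batch term, and DESeq2 and limma voom with it. The other fits were not checked in this way.

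The batch numbers pair the libraries because the labels call them batches. Deviations of partners from their group means correlated across genes at r = 0.625, 0.702, 0.611 and 0.906 in batches 1 to 4. Within batches 1 to 3, libraries of different number correlated at 0.465 to 0.741, so the data separate batch 4 and hardly the others. All pairs of libraries differed by more than sampling noise (smallest chi-square per degree of freedom 4.57).

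Members, gene lists and motifs were chosen with earlier results of these data known. Named are all 8 members, of each of 4 pathway lists those past the threshold in the main fit or the 2 with the smallest p, the 5 tested genes on either side of the cluster, and the 5 genes most correlated with the members' mean. Il7r was named after its values were seen, and 1 gene that the rule names is not reported here. There were 8 marker lists. Positions and exon lengths are from GENCODE vM21 (GRCm38, which mm10 denotes), and start regions from RefSeq.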

Additional observations from a re-analysis of the deposited data

Results flagged for a closer look

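In 9 of the 16 sets of 4 values (8 genes in each host), the batch 4 library lay farther from the other 3 than Dixon's 95% limit for 4 values allows. Chance puts some library past that limit in about 5% of sets. Over all tested genes the batch 4 library was the high value past the limit in 17.2% of 29214 sets, so such values are common in these 2 libraries, and the 9 sets are not independent. In NOD hosts these were Gimap4 at 1041 CPM (the others 283.5 to 370.5), Gimap6 at 3244 (292 to 586), Gimap7 at 578 (20.2 to 47.7) and Gimap9 at 826 (53.1 to 92.8). In B16A hosts they were Gimap4 at 1140 CPM (297 to 320.5), Gimap6 at 2338 (309 to 551), Gimap7 at 418 (29.8 to 38.4), Gimap8 at 202 (68.4 to 70.7) and Gimap9 at 586 (59.8 to 73.5). Gimap1, Gimap3 and Gimap5 had no such value in either host. Depth and composition also differ in these 2 libraries, and their part was not tested.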

How the results depend on the processing

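No GIMAP gene passed the threshold under any of the 19 alternatives, and 130 of the 152 member values kept their sign. The lowest adjusted p was 0.355 for Gimap1 (batch 4 left out with the replicate block). Gimap4, at -0.04 in log2 fold change, turned positive with the replicate block (0.0064), with DESeq2 and the block (0.017), in limma voom (0.065, or 0.057 with the block) and with batch 4 left out (0.065, or 0.056 with the block). Gimap8, at -0.13, turned positive in limma voom (0.15, or 0.070 with the block) and with batch 4 left out (0.080, or 0.055 with the block). Gimap3 was -0.0038 with batch 4 left out and the block. The cause was not tested.

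Leaving out 1 library in turn gave 0 called genes in each direction and log2 fold changes of 0.08 to 0.53 for Gimap1, -0.14 to 0.40 for Gimap3, -0.73 to 0.74 for Gimap4, -0.055 to 0.43 for Gimap5, -0.98 to 1.50 for Gimap6, -1.85 to 2.42 for Gimap7, -0.52 to 0.45 for Gimap8 and -1.51 to 2.02 for Gimap9. Each lowest value was without NOD replicate 4, except for Gimap1 (without B16A replicate 2). Each highest was without B16A replicate 4, except for Gimap3 (without NOD replicate 2). Those fits keep batch 4 in 1 host only.

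Over all genes, where the fit without a batch term called 0 higher and 0 lower, DESeq2 with the replicate block called 23 higher and 4 lower, limma voom with the block 6 and 1, and batch 4 left out with the block 25 and 7. DESeq2 gave no adjusted p for Gimap7 and Gimap9 without the batch term.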
